A study of Mus musculus with 45 samples.

Results

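The genes described here are 9 mouse exporters of the ATP-binding cassette (ABC) superfamily, Abcc1, Abcc2, Abcc3, Abcc4, Abcc5, Abcc6, Abcb1a, Abcb1b and Abcg2. They were taken by name from a table of 22080 genes, and all 9 were found, each as 1 probe set. The table also held 44 other ABC genes, used only where a comparison is drawn. RNA was read with Affymetrix gene arrays (mouse gene st v1.0) in liver, kidney and brain of male C57BL/6 mice that were 7 weeks old and were killed at day 43 of feeding. The Control group ate the AIN-93 diet. The other groups ate that diet with 0.5% cholesterol, either alone (HCD), with 1% of a standardized extract of the mushroom Ganoderma lucidum (HCD+Gl-1), with 1% of an extract of the mushroom grown on substrate that held 10 mM acetylsalicylic acid (HCD+Gl-2), or with simvastatin, a statin, at 0.03% by weight (HCD+Sim). Each group had 8 mice. Each of the 15 tissue by diet groups was hybridised as 3 arrays, of pool A (RNA of 4 mice), pool B (RNA of 4 other mice) and pool C (A and B combined). A group therefore held 2 separate pools, and its 3 arrays are not 3 independent sets of mice. The p-values below rest on a within-group spread that was estimated for each gene over all 15 groups together. They do not measure the spread of the compared groups alone.

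ABC exporters spend ATP to push substrates out of the cell. Members of the C family carry organic anions, among them the glutathione, glucuronide and sulfate conjugates made in detoxification, whereas P-glycoprotein and Abcg2 carry a wide range of drugs and lipophilic compounds. In hepatocytes some of these pumps face the bile canaliculus and others face the blood, in the kidney several line the proximal tubule, and in the brain P-glycoprotein and Abcg2 sit in the endothelium of the blood-brain barrier.

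All values are log2 signals that the study had normalized, so a difference of 1 is a signal 2 times as high. Levels are compared between groups for the same gene and not between genes, because probe sets differ in brightness. The tables used here give no detection calls, so each group was set beside the 95th percentile of 1100 olfactory receptor genes on the same arrays, which lay between 6.00 and 6.38, and a group mean at or under it is called dim. A gene is called DE where the absolute log2 fold change exceeded 0.7 and the adjusted p of limma was at most 0.05. In bulk tissue, fewer cells of a type and less RNA per cell cannot be told apart. The free-text description of all 30 liver and kidney arrays named brain tissue, against their titles, so the tissue was checked by markers. The mean of 8 hepatocyte genes was 13.04 to 13.16 in the arrays titled liver and at most 9.08 elsewhere, the mean of 8 kidney genes was 11.99 to 12.17 in kidney and at most 6.25 elsewhere, and the mean of 8 neural genes was 11.07 to 11.40 in brain and at most 6.69 elsewhere. Arrays of 1 group correlated with r of 0.985 to 0.997 over all genes.

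Each of these genes differed between tissues, and 1 of them, Abcc3, passed the DE thresholds with diet. On the Control diet all 9 were DE in at least 1 of the 3 tissue comparisons, against 41.3% of all genes, and 4 (Abcc5, Abcc6, Abcb1a and Abcg2) were DE in all 3, against 5.89% of all genes. In liver against kidney 8 of 9 were DE (16.8% of all genes), 2 of them higher in liver (6.78% of all genes were) and 6 lower (10.1%). In liver against brain 7 of 9 were DE (32.7%), 4 higher in liver (15.5%) and 3 lower (17.2%). In kidney against brain 7 of 9 were DE (30%), 5 higher in kidney (15.7%) and 2 higher in brain (14.2%). The median difference of all genes was 0.06, 0.14 and 0.08 in these 3 comparisons, and the values here were not corrected for it.

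**Figure D1:**
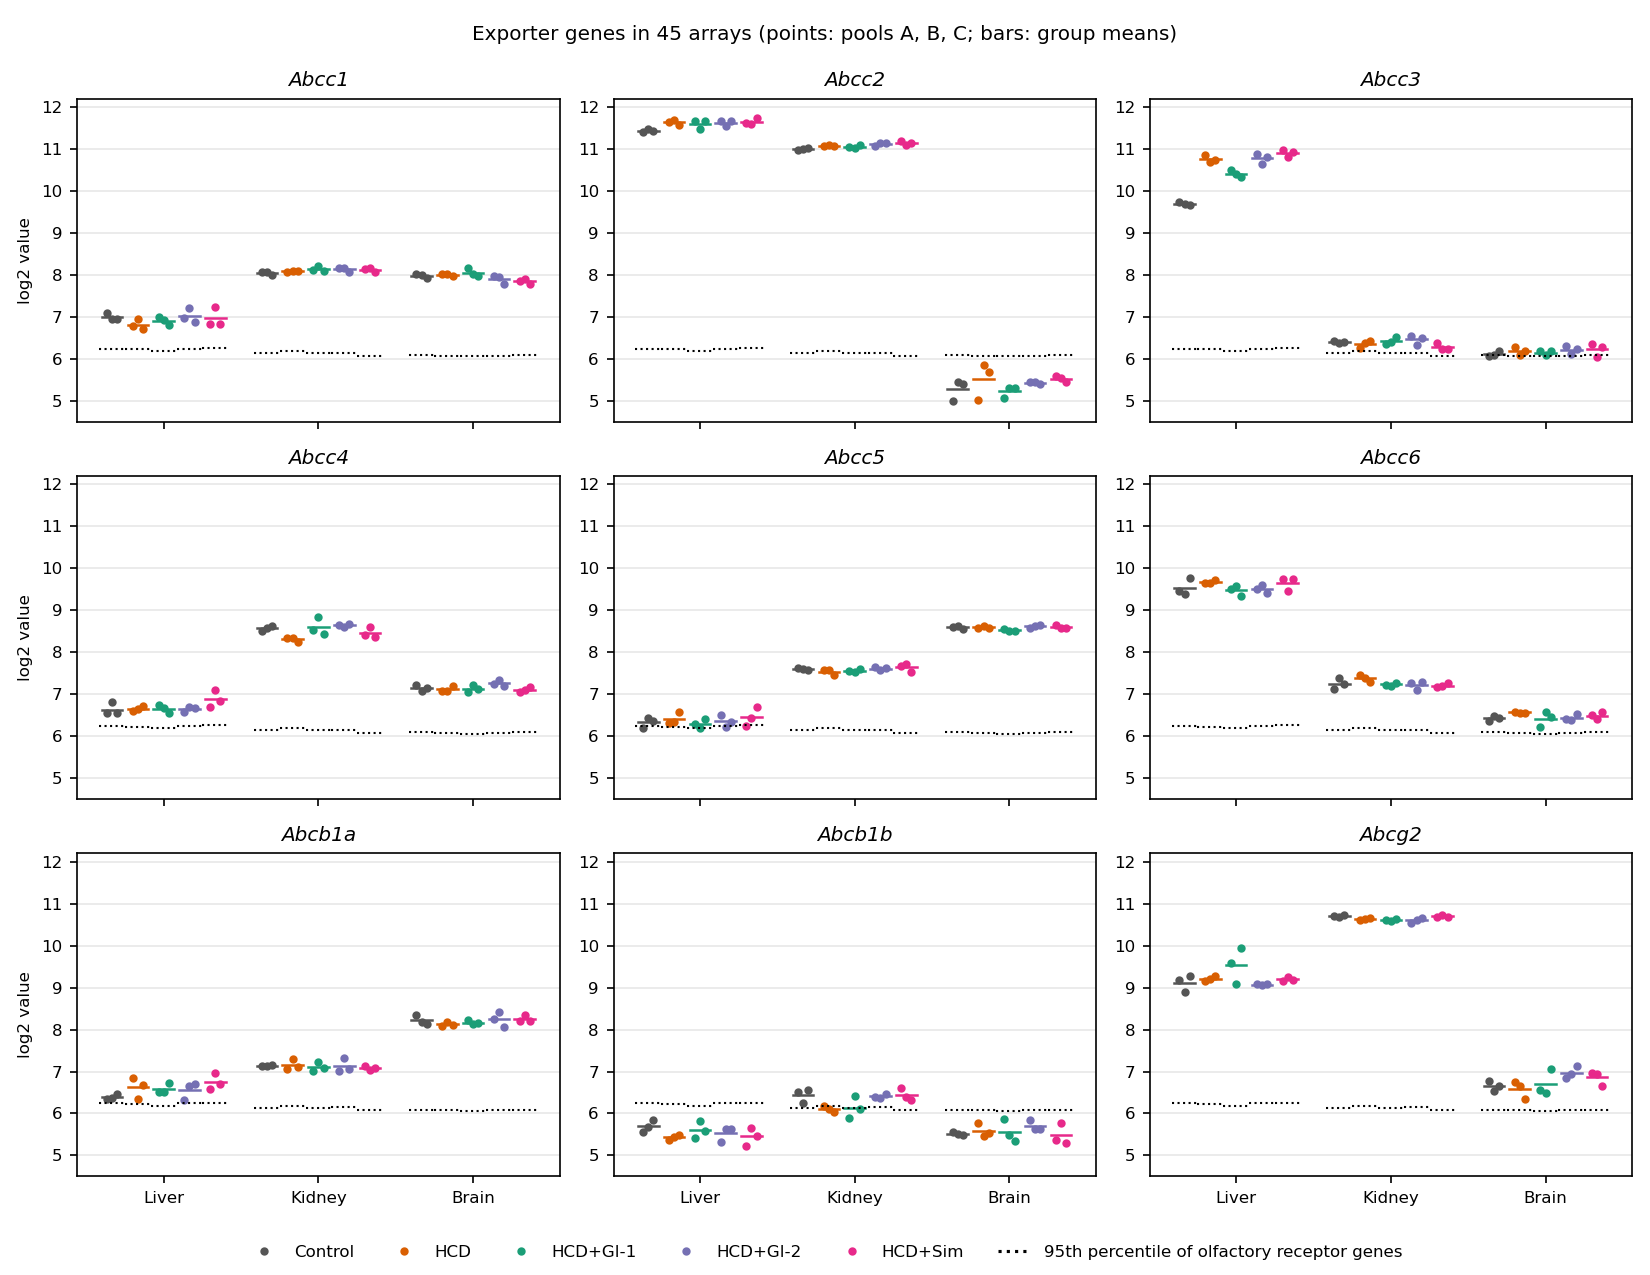
Log2 values of the 9 exporter genes (vertical axis) in the 45 arrays, grouped by tissue and coloured by diet. Points are the arrays of pools A, B and C, bars are group means and dotted lines the 95th percentile of olfactory receptor genes. Abcc3 in liver lies near 9.70 on Control and at 10.34 or above on every other diet, with kidney and brain at 6.55 or below.

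Abcc2 and Abcc3 place conjugates on opposite sides of the hepatocyte. Abcc2 exports them across the canalicular membrane into bile and, in the kidney, across the brush border into urine. Its Control arrays read 11.42, 11.48 and 11.42 in liver, 10.99 to 11.02 in kidney, and 4.99, 5.46 and 5.40 in brain. Liver exceeded kidney by 0.44 (SE 0.12, adjusted p = 0.00162, not DE because the difference was under 0.7), with no overlap of arrays. Brain was dim in all 5 diets, so the difference is given as a bound, and liver was at least 40.7-fold and kidney at least 30.1-fold above brain (measured differences 6.16 and 5.72, limma adjusted p = 6.64e-35 and 1.16e-33). Abcc3, which faces the blood and returns glucuronides and bile acids to it, read 9.74, 9.69 and 9.67 in liver, 6.43, 6.37 and 6.40 in kidney, and 6.06, 6.10 and 6.19 in brain. Liver stood 3.30 (SE 0.08, adjusted p = 3.88e-31) above kidney and 3.58 (adjusted p = 1.27e-32) above brain. Kidney and brain lay close to the dim level and differed by 0.28, with an adjusted p of 0.00212 that did not come with a DE call.

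Abcc6, mutated in the mineralization disorder pseudoxanthoma elasticum and needed for ATP release from hepatocytes, followed the same order of tissues. Its Control means were 9.54 ± 0.21 in liver, 7.25 ± 0.13 in kidney and 6.43 ± 0.06 in brain (SD, n = 3 arrays). Liver was 4.89-fold above kidney (adjusted p = 1.94e-23) and 8.60-fold above brain (2.86e-28), and kidney was 1.76-fold above brain (3.51e-10). Abcg2, which works as a dimer and carries urate and many drugs, was highest in kidney. Its arrays read 10.70, 10.68 and 10.72 there, 9.18, 8.89 and 9.28 in liver, and 6.77, 6.53 and 6.65 in brain. The 3 tissues did not overlap, with kidney 3.00-fold above liver (adjusted p = 2.31e-13) and 16.6-fold above brain (1.04e-26), and liver 5.53-fold above brain (1.25e-19).

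Abcc1, Abcc4 and Abcc5 were lowest in liver. Abcc1, a widely used exporter of glutathione conjugates and leukotrienes, read 7.09, 6.96 and 6.95 in liver, 8.08, 8.06 and 8.00 in kidney, and 8.01, 8.00 and 7.92 in brain. Kidney and brain overlapped and differed by 0.06 (95% interval -0.11 to 0.24, adjusted p = 0.549), and both stood above liver by 1.05 and 0.98 (adjusted p = 1.5e-13 and 4.1e-13). Abcc4, which exports cyclic nucleotides, urate and prostaglandins, was highest in kidney at 8.57 ± 0.05, against 7.15 ± 0.07 in brain and 6.63 ± 0.15 in liver (SD, n = 3 arrays). Kidney exceeded brain by 1.41 (adjusted p = 3.18e-17) and liver by 1.94 (2.56e-21), and brain exceeded liver by 0.52 (2.71e-06, under the fold threshold). Abcc5, an exporter of cyclic nucleotides and nucleotide analogues, was highest in brain at 8.59 ± 0.03, then 7.60 ± 0.02 in kidney and 6.33 ± 0.12 in liver, where 3 of the 15 arrays over all diets were at or under the dim level. Each step was DE, by 0.99 from kidney to brain (adjusted p = 1.7e-13) and by 1.27 from liver to kidney (1.79e-16).

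Rodents have a pair of P-glycoprotein genes, Abcb1a and Abcb1b, where humans have a single one, and the pair differed in its order of tissues. Abcb1a, the form of the blood-brain barrier, read 8.35, 8.17 and 8.14 in brain, 7.13, 7.14 and 7.16 in kidney, and 6.34, 6.37 and 6.46 in liver. No tissues overlapped, and brain stood 1.08 above kidney (SE 0.11, adjusted p = 1.78e-11) and 1.83 above liver (adjusted p = 2.72e-18), with kidney 0.75 above liver (1.63e-07). Abcb1b, the form also used in steroid-producing tissue, read 6.52, 6.26 and 6.57 in kidney, 5.56, 5.69 and 5.84 in liver, and 5.56, 5.51 and 5.49 in brain. Liver and brain were dim in every diet, so kidney can be put only at least 1.15-fold above liver and at least 1.28-fold above brain, although the measured differences of 0.75 and 0.93 were DE (adjusted p = 7.17e-06 and 7.42e-08). The kidney call against liver also rested on single arrays, since without pool A of the liver Control group liver minus kidney was -0.68, and without pool C of the kidney Control group it was -0.69, both under the fold threshold. Whether the probes of these close relatives read each other's transcripts was not tested. Of 12 genes marking brain endothelium, 12 lay above the dim level in brain, 10 in liver and 9 in kidney.

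**Figure D2:**
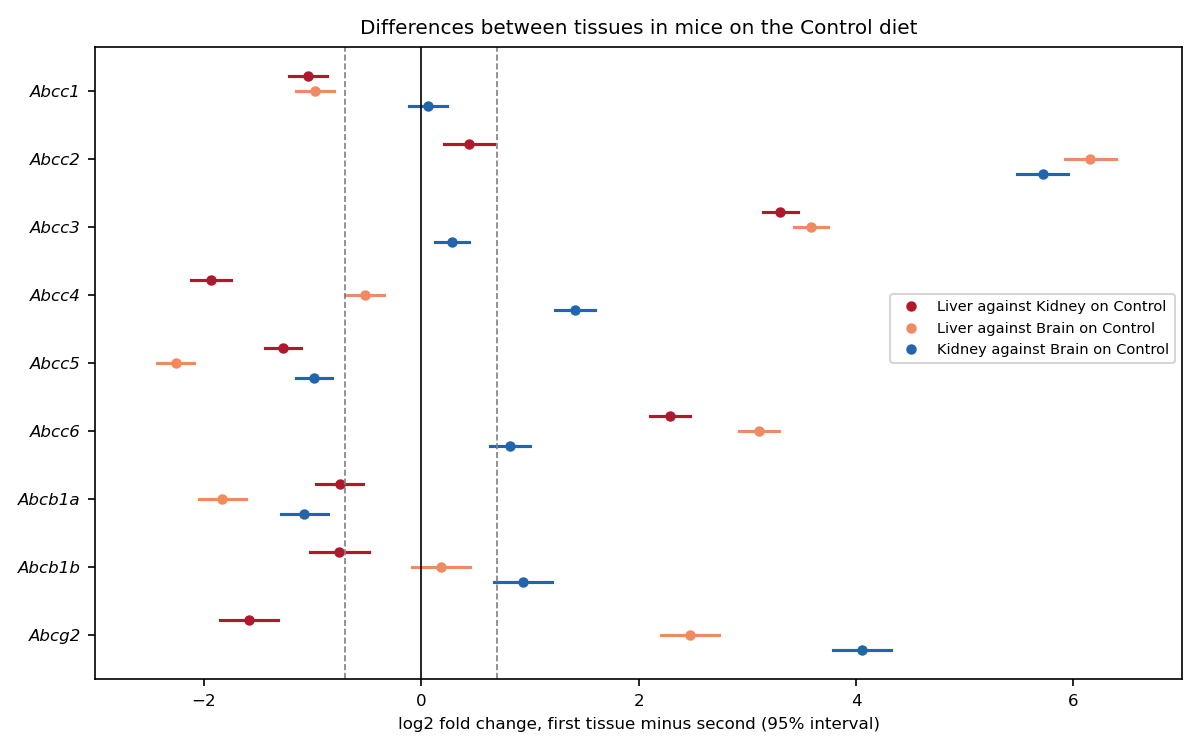
Log2 fold changes between tissues on the Control diet (horizontal axis, first tissue minus second) with 95% intervals, for the 9 exporter genes, with dashed lines at 0.7 either way. Abcc2, Abcc3 and Abcc6 were higher in liver than in either other tissue, and Abcc1, Abcc4, Abcc5 and Abcb1a were lower in liver than in either.

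The promoter windows of 3 genes are shown so that the P-glycoprotein pair can be set side by side and against Abcc2. They are RefSeq windows on GRCm38.p6 holding the 250 bases before the annotated start, given 5′ to 3′ on the plus strand, at chr5:8566841-8567090 for Abcb1a, chr5:8797897-8798146 for Abcb1b and chr19:43782058-43782307 for Abcc2. Windows were found for 6 of the 9 genes, without Abcc1, Abcc3 and Abcc6. Capitals mark matches, on either strand, to the nuclear receptor site AGGTCA, its variant AGTTCA, the aryl hydrocarbon receptor core GCGTG and the NRF2 element TGACNNNGC.
Abcb1a: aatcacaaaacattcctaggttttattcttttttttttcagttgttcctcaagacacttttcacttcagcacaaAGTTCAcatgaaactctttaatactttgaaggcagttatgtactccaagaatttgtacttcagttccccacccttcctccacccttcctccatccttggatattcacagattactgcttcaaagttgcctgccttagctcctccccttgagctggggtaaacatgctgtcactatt
Abcb1b: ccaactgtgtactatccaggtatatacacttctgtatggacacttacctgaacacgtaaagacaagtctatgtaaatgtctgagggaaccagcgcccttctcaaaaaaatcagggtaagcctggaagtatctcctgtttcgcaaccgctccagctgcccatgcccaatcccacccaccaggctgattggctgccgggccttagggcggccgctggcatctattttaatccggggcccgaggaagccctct
Abcc2: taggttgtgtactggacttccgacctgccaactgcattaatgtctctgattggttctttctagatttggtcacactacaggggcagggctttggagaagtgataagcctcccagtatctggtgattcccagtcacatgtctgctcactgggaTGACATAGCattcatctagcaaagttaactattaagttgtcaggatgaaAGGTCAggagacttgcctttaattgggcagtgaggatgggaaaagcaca
The Abcb1a window held 1 AGTTCA, which 11.8% of all 32851 windows hold, and the Abcb1b window held none of the 4 motifs. The Abcc2 window held 1 AGGTCA (14% of all windows) 49 to 44 bases before the start and 1 TGACNNNGC (10.2%) 98 to 90 bases before it. The first of the 2 Abcc4 windows held 2 GCGTG (28.2%) and 1 TGACNNNGC, the second 1 TGACNNNGC, the 3 Abcg2 windows 3 AGGTCA in all, and the Abcc5 window none. GC content was 40.4% in the Abcb1a window and 52.8% in that of Abcb1b. A match is a run of letters and not a bound site.

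On HCD, Abcc3 rose in liver, and none of the other 8 genes passed the test there. The Control arrays read 9.74, 9.69 and 9.67 and the HCD arrays 10.87, 10.70 and 10.75, so the groups did not overlap. The mean rose by 1.07, or 2.1-fold (SE 0.08, 95% interval 0.91 to 1.23, limma adjusted p = 4.73e-12). This was 1 of 9 genes DE, against 0.245% of all genes. By log2 fold change Abcc3 ranked first of the 53 ABC genes and 8 of 22080 genes, and by p it ranked 2. Leaving out any 1 of the 6 arrays gave 1.02 to 1.11. The other 8 genes had differences of -0.26 to 0.23 with adjusted p of 0.435 or more. Among them Abcb1a read 6.34, 6.37 and 6.46 on Control and 6.84, 6.35 and 6.68 on HCD, which overlapped (0.23, adjusted p = 0.438), and Abcc1 read 7.09, 6.96 and 6.95 on Control and 6.79, 6.94 and 6.71 on HCD (-0.19, adjusted p = 0.435).

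Markers of other cells were set beside the Abcc3 rise. The 8 hepatocyte genes averaged 13.09 to 13.13 in the Control livers and 13.06 to 13.11 in the HCD livers, and the 7 bile duct genes 6.86 to 6.96 and 6.79 to 7.00. The 8 measured macrophage genes averaged 8.55 to 8.65 in Control and 8.25 to 8.35 in HCD livers with none DE (Marco, named after its value was seen, passed the p threshold alone at -0.64, adjusted p = 0.000837), and the 9 muscle genes 6.95 to 7.17 and 6.46 to 6.71 with 1 of 9 lower (Myh1, a fast muscle myosin). The Myh1 mean was dim on HCD (5.22) and barely above the dim level on Control (6.25 against 6.24). All 8 macrophage and all 9 muscle genes were lower in value where Abcc3 was higher. The 10 immediate early genes, of the stress response, averaged higher with Abcc3, at 7.06 to 7.12 in Control and 7.15 to 7.28 in HCD livers, with none DE. The part of these lists in the result was not tested.

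**Figure D3:**
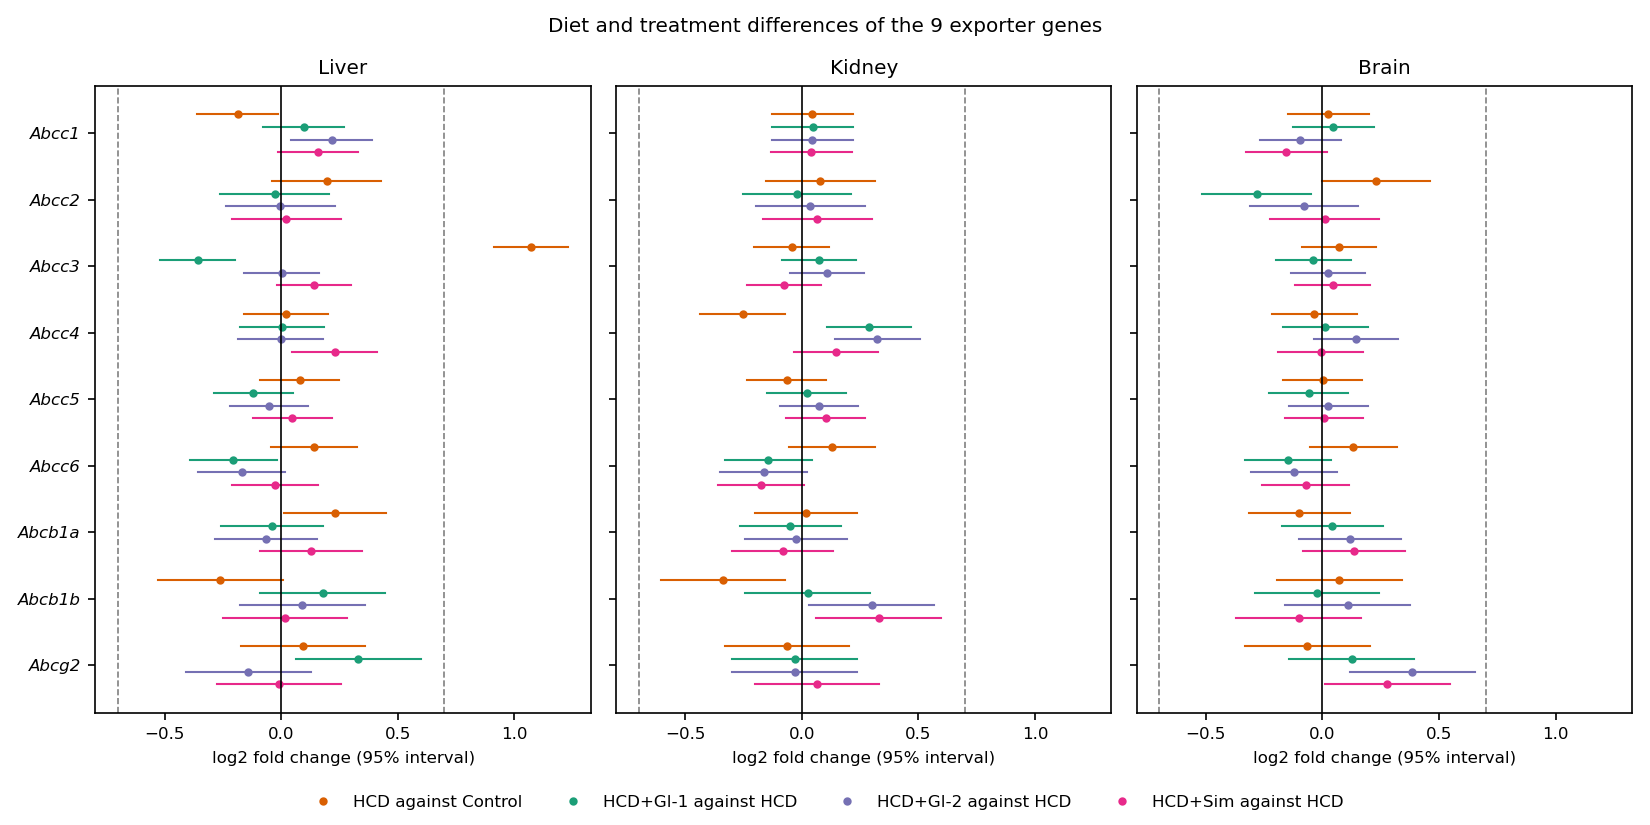
Log2 fold changes of the 9 exporter genes (horizontal axis, with 95% intervals) for the 4 diet and treatment comparisons in each tissue, with dashed lines at 0.7 either way. Abcc3 in liver on HCD lies beyond the line at 1.07, and the intervals of all 104 values other than those of Abcc3 in liver stay inside the lines. The intervals use a spread shared by all groups and can be too narrow for a group that varied more.

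Abcc3 stayed above Control with each treatment added to the cholesterol diet. The arrays read 10.51, 10.40 and 10.34 in HCD+Gl-1, 10.88, 10.64 and 10.80 in HCD+Gl-2, and 10.98, 10.82 and 10.94 in HCD+Sim. All 9 lay above every Control array. Against Control the differences were 0.71 in HCD+Gl-1 (adjusted p = 2.6e-07), 1.07 in HCD+Gl-2 (8.99e-12) and 1.21 in HCD+Sim (1.78e-13), and Abcc3 was the only one of the 9 genes DE in each (against 0.322%, 0.584% and 0.358% of all genes). The HCD+Gl-1 value was close to the fold threshold and was just under it (0.70) without pool C of Control and 0.67 without pool A of HCD+Gl-1, where it was no longer DE. These comparisons share the Control arrays.

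Set against HCD, none of the 9 genes was DE in liver with Gl-1 (0.163% of all genes were), Gl-2 (0.303%) or simvastatin (0.258%), and 3, 1 and 1 of the 9 had an unadjusted p under 0.05 in limma, against 16.6%, 12.6% and 11.7% of all genes. Abcc3 was at -0.36 with Gl-1 (SE 0.08, 95% interval -0.52 to -0.20, adjusted p = 0.00778), which passed the p threshold and not the fold threshold, in a comparison where 2.48% of all genes passed the p threshold. The 3 Gl-1 arrays all lay below the 3 HCD arrays. The adjusted p was 0.0611 without pool A of HCD and 0.0739 without pool C of HCD+Gl-1, with differences of -0.31 and -0.32. The 9 muscle genes averaged 6.25 to 6.40 in HCD+Gl-1 and 6.46 to 6.71 in HCD livers and the 12 endothelial genes 7.37 to 7.50 and 7.51 to 7.64, with none DE, and their part in the Abcc3 value was not tested. With Gl-2 the difference was 0.00 (95% interval -0.16 to 0.16, adjusted p = 0.997), and with simvastatin 0.14 (-0.02 to 0.30, adjusted p = 0.492).

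The 2 extracts could be compared at the same dose and time. No gene of the 9 was DE between them in liver (0.172% of all genes were), and 2 of 9 passed the p threshold alone (3.94% of all genes did). Abcc3 was higher with Gl-2 by 0.36 (SE 0.08, adjusted p = 0.00789), with no overlap of arrays, and had an adjusted p of 0.0839 without pool C of HCD+Gl-1. Abcg2 was at -0.47, lower with Gl-2 (SE 0.13, adjusted p = 0.035). Its HCD+Gl-1 arrays read 9.59, 9.09 and 9.94 and its HCD+Gl-2 arrays 9.08, 9.05 and 9.08, so the spread lay in the HCD+Gl-1 group. Without its pool C the Abcg2 difference was -0.27 (adjusted p = 0.413) and without its pool B -0.70 (adjusted p = 0.000211). Leaving out any 1 of the other 4 arrays gave an adjusted p above 0.05 as well, from 0.0639 to 0.116. Pool C of that group, made from pools A and B, lay above both. A pool C outside A and B was common, since it lay between them in 45 of 135 group values of the exporter genes. Over all genes it did so in 28.3% of group values. Against HCD the HCD+Gl-1 group was at 0.33 for Abcg2 (adjusted p = 0.178), or 0.56 without pool B of that group (0.00276). Between the extracts 9 of 10 immediate early genes were also DE, all higher with Gl-2, and their part in these values was not tested.

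**Figure D4:**
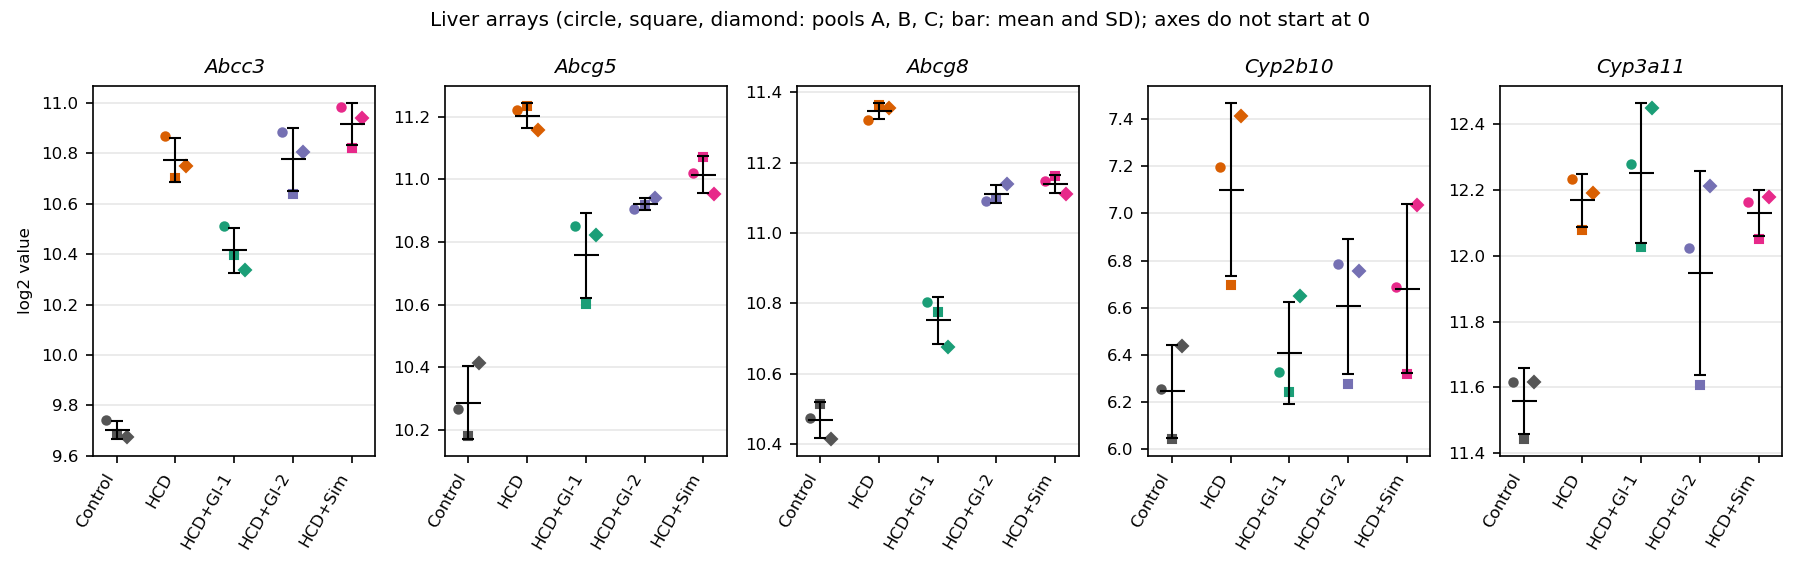
Log2 values in the 15 liver arrays (vertical axes, which do not start at 0) by diet, for Abcc3 and 4 genes named for comparison, with pools A, B and C as circle, square and diamond and the group mean and SD in black. Abcc3, Abcg5 and Abcg8 are lowest on Control and highest on HCD or HCD+Sim, with HCD+Gl-1 between.

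The Abcc3 rise on HCD was a liver result. In kidney the arrays read 6.43, 6.37 and 6.40 on Control and 6.26, 6.38 and 6.42 on HCD, a difference of -0.04 (95% interval -0.20 to 0.12, adjusted p = 1). In brain they read 6.06, 6.10 and 6.19 on Control and 6.28, 6.10 and 6.18 on HCD, a difference of 0.07 (-0.09 to 0.23, adjusted p = 0.977). The response in liver exceeded that in kidney by 1.12 (SE 0.11, limma interaction, adjusted p = 5.7e-08) and that in brain by 1.00 (SE 0.11, adjusted p = 7.1e-07). No other of the 9 genes had such a difference, against 0.149% and 0.19% of all genes. Kidney and brain signals of Abcc3 were near the dim level.

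No exporter gene was DE with diet or treatment in kidney or brain. In kidney 0 of 9 were DE on HCD (0.0408% of all genes), with Gl-1 (0.131%), with Gl-2 (0.335%) and with simvastatin (0.14%), and 6 of the 36 values had an unadjusted p under 0.05 in limma, against 5.91% of all gene values in kidney. In brain 0 of 9 were DE on HCD (0.0317%), with Gl-1 (0.00906%), with Gl-2 (0.0226%) and with simvastatin (0%), and 3 of 36 values had an unadjusted p under 0.05, against 6.04% of all gene values in brain. Over all 12 comparisons 17 of 108 values had one, against 8.25% of all gene values, and 2 of 108 had an adjusted p of at most 0.05, both of them Abcc3 in liver (0.696% of all gene values), while 1.11% of all genes were DE at least once. Against Control, and between the extracts, none of 72 further kidney and brain values was DE (0.081% of all gene values), with 4 at an unadjusted p under 0.05 (7.94%). Outside Abcc3 in liver every one of the 104 intervals of the 12 comparisons lay within 0.7 either way, the widest reach being 0.65. These intervals use the spread shared by all groups. They can be too narrow where a group varied more, as Abcg2 did in HCD+Gl-1 livers (SD 0.43).

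The lowest adjusted p in kidney belonged to Abcc4. Its arrays read 8.51, 8.58 and 8.62 on Control, 8.34, 8.35 and 8.26 on HCD, 8.52, 8.84 and 8.44 on HCD+Gl-1, 8.65, 8.59 and 8.67 on HCD+Gl-2, and 8.42, 8.61 and 8.36 on HCD+Sim. All 3 HCD arrays lay below every other array of the kidney, but the differences were small, -0.25 for HCD against Control (adjusted p = 0.703), 0.29 for Gl-1 (0.403) and 0.32 for Gl-2 against HCD (0.0706), and the comparisons share the HCD arrays. Over 7 alternative fits the Gl-2 value of Abcc4 had a limma adjusted p of 0.0448 to 0.448 and was never DE. Abcb1b in kidney was at 6.45 ± 0.17 on Control, 6.11 ± 0.07 on HCD, 6.14 ± 0.26 on HCD+Gl-1, 6.41 ± 0.04 on HCD+Gl-2 and 6.44 ± 0.15 on HCD+Sim (SD, n = 3 arrays). Its limma adjusted p was 0.861 for HCD against Control and 0.664 for simvastatin against HCD, and its HCD mean was dim. In brain the widest difference was that of Abcg2, which read 6.74, 6.66 and 6.35 on HCD and 6.84, 6.94 and 7.12 on HCD+Gl-2 (0.39, adjusted p = 0.523). The kidney arrays of HCD+Gl-2 averaged 8.71 to 9.19 over 10 immediate early genes, against 6.96 to 6.97 on HCD, with all 10 DE (Egr1, an induced transcription factor, by 3.97), and their part in the Abcc4 value was not tested.

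The width of the band over the 15 arrays of a tissue differed between genes and tissues. Abcc2 ran from 11.42 through a median of 11.62 to 11.75 in liver and from 10.99 through 11.07 to 11.20 in kidney. Abcc5 in brain ran from 8.52 through 8.59 to 8.64, and Abcc6 in liver from 9.35 through 9.57 to 9.77. Abcg2 in kidney ran from 10.54 through 10.66 to 10.73, whereas in liver it reached from 8.89 to 9.94 and in brain from 6.35 to 7.12. Abcb1a in liver ran from 6.33 through 6.59 to 6.96 and Abcc5 in liver from 6.18 through 6.34 to 6.70. Signals at or near the dim level also spread, Abcc2 in brain from 4.99 to 5.84 and Abcb1b in kidney from 5.90 to 6.61. The median SD of an exporter gene within a group was 0.08.

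The liver genes that make, sense or carry the same substrates were read from lists. Of 9 other bile and sterol exporters 2 were DE on HCD, both higher, Abcg5 by 0.92 (adjusted p = 1.34e-06) and Abcg8 by 0.88 (8.65e-10), which together form the sterol exporter into bile. Abcb11, the bile salt pump, was at -0.12 (adjusted p = 0.81) and Abcb4, the phospholipid floppase, at -0.37 (0.23). Slc51b, part of the basolateral bile acid exporter that works beside Abcc3, was at -0.23 (0.624). Its mean was near the dim level on Control (6.40) and dim on HCD (6.17). The 44 other ABC genes include Abcg5 and Abcg8, and 1 more of them was DE, Abcd2, a peroxisomal importer of very long chain fatty acids, at -1.02 with a dim HCD mean of 5.96 (0.000245). The list medians were 0.09 for the 9 genes described here, 0.18 for the bile and sterol exporters and -0.02 for the other ABC genes, beside -0.01 for all genes.

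None of 18 uptake carriers, 19 measured of 27 glucuronidation and sulfation genes, 23 measured of 26 glutathione genes, 18 receptors and transcription factors and 7 scaffold proteins was DE in liver on HCD, with list medians of -0.01, 0.10, 0.11, 0.01 and 0.02. The receptors known to act on Abcc2 and Abcc3 were among those not called, with Nr1i2 (the pregnane X receptor) at 0.13 (adjusted p = 0.744), Nr1i3 (the constitutive androstane receptor) at 0.18 (0.681), Nfe2l2 (the oxidative stress factor NRF2) at 0.14 (0.634), Nr1h4 (the bile acid receptor) at -0.03 (0.973), Ppara at -0.04 (0.962) and Ahr at -0.11 (0.791). RNA levels of a receptor do not measure its activity. On these lists 4 genes passed the p threshold alone, all higher and named after their values were seen, Ugdh at 0.37 (0.00374) and Ugp2 at 0.35 (0.01), which supply the sugar donor for glucuronidation, and the glutathione transferases Gstm3 at 0.49 (0.000264) and Gstm4 at 0.52 (0.00481). Of 20 measured target genes of these receptors (21 listed) 2 were higher and 1 lower. Cyp2b9 and Cyp2b10, cytochromes P450 of drug and steroid metabolism, rose by 3.20 (4.72e-13) and 0.86 (0.000704), and Cyp4a14, a fatty acid hydroxylase, fell by 1.45 (0.0125). The HCD arrays of Cyp4a14 spread widely (SD 0.95, n = 3 arrays). The Control mean of Cyp2b9 was 5.36, which is dim, so its value is a measured difference and not a fold of expression. The Control mean of Cyp2b10, 6.25, lay barely above the dim level of those arrays (6.24), so its value has nearly the same limit. Cyp3a11, the main drug-metabolizing cytochrome of the mouse liver, was 0.61 higher (0.00276), under the fold threshold, as was Cyp2c55 at 0.51 (0.0159, named after its value was seen).

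**Figure D5:**
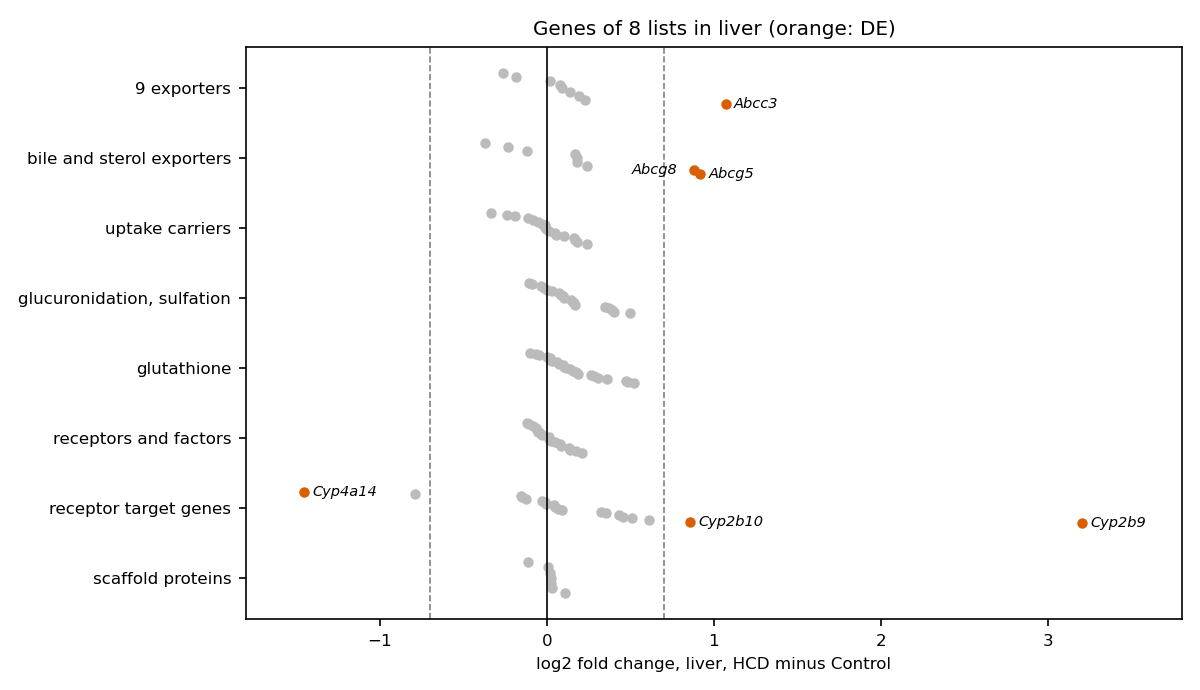
Log2 fold changes in liver for HCD minus Control (horizontal axis) of the measured genes of 8 lists, 1 point a gene, with DE genes in orange and dashed lines at 0.7 either way. Abcc3 at 1.07, Abcg5 and Abcg8 and 2 cytochrome genes lie beyond the right line, and the uptake, conjugation, receptor and scaffold lists hold no orange point.

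Several of the target genes were DE with treatment. Against HCD, Cyp2b9 fell by 2.08 with Gl-1 (adjusted p = 1.84e-07) and fell by 3.17 with Gl-2 (6.39e-13, to a dim mean), while Abcc3 was at -0.36 and 0.00 in the same comparisons. Cyp2b10 was at -0.69 with Gl-1 (0.00726) and -0.50 with Gl-2 (0.0885). Cyp4a14 rose by 1.54 with Gl-2 (0.0062) and 2.42 with simvastatin (2.96e-05), and Cyp4a10, of the same family, by 0.93 (0.0287) and 0.90 (0.0495). The Cyp4a14 arrays read 10.74, 9.69 and 11.09 with Gl-2 and 9.38, 7.88 and 9.64 on HCD, so the groups nearly met. Cyp4a10 also varied, with an SD of 0.56 on HCD and 0.41 with Gl-2. The limma p-values of both genes use the spread shared by all groups and can be too small where a group varied more. Gstm6, a glutathione transferase, fell by 0.71 with Gl-1 (0.0242) and was the single DE gene of the 23 on the glutathione list. Abcg8 was at -0.60 with Gl-1 (1.15e-05) and Abcg5 at -0.45 (0.023), both under the fold threshold as Abcc3 was. Nr1i3 was 0.43 higher with Gl-2 (0.0431), also under it. Of the 18 uptake carriers, 19 conjugation genes and 7 scaffold proteins none was DE with any treatment in liver.

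Genes of other tissues and of the stress response were higher in some liver groups. In HCD+Sim livers 8 of 10 pancreatic enzyme genes and 6 of 9 muscle genes were DE above HCD (0.199% of all genes were), with the pancreatic genes averaging 6.40 to 8.21 in the HCD+Sim arrays and 6.19 to 6.29 in the HCD arrays, and the muscle genes 6.56 to 8.10 and 6.46 to 6.71. Among the largest of these differences the arrays overlapped for Cpb1, Atp2a1, Myh1, Acta1 and Myh4, and not for Amy2a5, Ctrb1 and Cpa1. In HCD+Gl-2 livers 8 of 10 immediate early genes were DE above HCD (0.208% of all genes were), averaging 7.33 to 9.25 against 7.15 to 7.28. Among the largest of these differences the arrays overlapped for Egr1, Fos and Jun, and not for Egr2. The part of the pancreatic, muscle and immediate early genes in the values of Abcc3 with simvastatin and Gl-2 was not tested. Abcc3 varied by 0.08 and 0.12 (SD, n = 3 arrays) within those 2 groups.

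Genes whose pattern was most like that of an exporter were named, for 8 of the 9, by Pearson r over the 15 group means, a description in which the 3 tissues carry most of the variation. For Abcc3 they were Abcg5 (r = 0.997), Abcg8 (0.997) and Cyp3a41b (0.996). For Abcc6 they were Gnmt, Rarres2 and Apoh, and for Abcg2 Gsr, Lrp6 and Gatb, all with r of 0.998 or 0.999. For Abcc1 they were Phc1, Tspan15 and Ddr1, for Abcc4 Slc9a2, Ezr and Necap2, for Abcc5 Pkia, Enah and Fam73a, for Abcb1a Prmt2, Gprc5b and Lphn1, with r from 0.994 to 0.999. Abcb1b, dim in most groups, had its closest match at 0.973 (Cep89, then Uap1l1 and Zfp503). Over the 15 liver arrays alone the closest to Abcc3 were Adam11 (0.932), Acsm5 (0.916) and Glt1d1 (0.911), of which Adam11 was DE on HCD, higher by 1.16 (adjusted p = 2.36e-07).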

How the data were processed

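RNA of liver, kidney and brain was hybridised to Affymetrix arrays, 45 in all. The authors corrected background by RMA, quantile normalized the values with oligo, applied ComBat to batches the sources used here do not name, kept 1 probe set per gene by interquartile range, and deposited log2 values. Arrays carry no counts, so their number limits the precision. ComBat adjusts the values of each gene by batch, and whether it altered these genes or their spread was not tested. From 22080 genes (13 names turned into dates) limma 3.58.1 in R 4.3.3 fitted 15 group means over all 45 arrays, with contrasts for diets, treatments, tissues and differences between tissues, Benjamini-Hochberg adjustment over 22080 genes in each, and DE as absolute log2 fold change over 0.7 with adjusted p at most 0.05, after the study's methods. With 3 arrays against 3 an exact permutation test cannot go below 0.1, so none was used. The fit was tested on simulated data with independent noise in every array and 1 spread per gene. That test cannot show how pool C, made from A and B, or unequal spreads of groups affect the p-values. The members and lists were chosen with earlier results of these data known. Named genes were the 9 exporters, list members DE in a within-tissue comparison (at most 4 per list and comparison by size), 13 liver genes fixed by name, and the 3 closest by r, which for Abcc2 are not reported here. Alternatives were other sets of arrays, pools A and B only, a replicate block for the pool letter, dim genes left out, renormalization within tissues, trend and robust moderation, no fold threshold, and omitting each array. Promoter windows came from RefSeq (GRCm38.p6).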

Additional observations from a re-analysis of the deposited data

Results flagged for a closer look

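The response of Abcc3 to the cholesterol diet differed between tissues by a test of the difference itself. In liver it was larger than in kidney by 1.12 on the log2 scale (95% interval 0.89 to 1.34, adjusted p = 5.7e-08), and larger than in brain by 1.00 (0.78 to 1.23, adjusted p = 7.1e-07), in limma over 22080 genes. All 3 HCD livers lay above all 3 Control livers. Leaving out any 1 of the 12 arrays gave 1.07 to 1.15 against kidney and 0.95 to 1.05 against brain.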

How the results depend on the processing

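The count of exporter genes DE was computed for the 12 diet and treatment comparisons and the 3 tissue comparisons under each alternative. It stayed within 1.5 times the value given in all of them, apart from liver HCD+Gl-1 against HCD, where dropping the fold threshold gave 1 gene (Abcc3) in place of 0. With the pool letter as a replicate block the liver HCD count was 1 and Abcc3 was at 1.07 (adjusted p = 9.24e-13), and the block changed no other call. Over all genes the r between deviations of same-lettered pools ran from -0.27 to 0.22 and was above 0.1 for every pair in 0 of 15 comparisons. Within liver it was mostly above 0. Such an r cannot show whether single genes shared a shift between pools. Abcc3 in liver was higher in pool A than in pool B in every diet group, and for Cyp2b10 and Cyp3a11 pool B was the lowest in every liver group. Abcc3 on HCD in liver ran from 1.06 to 1.07 over 7 alternative fits, with adjusted p up to 0.00204, and its differences between tissues from 1.09 to 1.15 and from 0.96 to 1.00. The values that passed the p threshold alone depended on the fit. Abcc3 with Gl-1 against HCD had adjusted p of 0.136 on the liver arrays only, 0.313 on the compared groups only and 0.195 on pools A and B only, Gl-2 against Gl-1 had 0.169, 0.508 and 0.265, and Abcg2 had 0.257, 0.536 and 0.337. The first 2 fits have fewer residual degrees of freedom and the third fewer arrays. The filter on dim genes kept 15087 genes and 8 exporters, without Abcb1b. The number of all genes DE moved more than that of the exporters. In liver it went from 54 on HCD to 21 on the liver arrays only and 98 on pools A and B only, from 36 with Gl-1 to 14 on the liver arrays only and 63 without pool B of HCD+Gl-1, from 67 with Gl-2 to 8 on the compared groups only and 108 without pool B of HCD+Gl-2, and from 57 with simvastatin to 0 on the compared groups only. In kidney, leaving out dim genes took it from 29 to 6 with Gl-1 and from 31 to 8 with simvastatin. In brain, pools A and B only took it from 7 to 207 on HCD, from 2 to 7 with Gl-1, from 5 to 17 with Gl-2 and from 0 to 8 with simvastatin. Signal over background limits Abcb1b in all 3 tissues (11 of 15 kidney arrays and no liver or brain array over the dim level), Abcc2 in brain, Abcc3 outside liver and Abcc5 in liver (12 of 15 over it).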
